A study of Mus musculus and Acomys cahirinus with 16 samples.

Results

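Transcripts of 9 genes for transcription factors of epidermal differentiation were followed in skin from 2 rodents, the house mouse (Mus musculus) and a spiny mouse (Acomys cahirinus). The genes were chosen by symbol as Trp63, Klf4, Klf5, Grhl1, Grhl3, Ovol1, Cebpa, Cebpb and Gata3. Each symbol was found once among the 56980 genes of the mouse table and once among the 19818 genes of the spiny mouse table, and all 9 passed the low-count filter in both species. Polyadenylated RNA was sequenced from 16 skin samples, 4 from untreated mice, 4 from DMBA/TPA-treated mice, 4 from untreated spiny mice and 4 from DMBA/TPA-treated spiny mice. DMBA is a mutagenic carcinogen and TPA a phorbol ester that drives keratinocytes to divide, and the combination is the classical chemical protocol for skin tumours. Strain, sex, age, doses, the time of sampling and whether treated skin was tumour or surrounding skin are not given in the sources used here. Titles and sample labels were followed for the groups, because the design text of the series speaks of irradiated fibroblasts. Nothing in the labels says whether replicates came from separate animals, so p-values measure the spread between these samples.

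The epidermis renews from a basal layer whose cells leave the basement membrane, differentiate through spinous and granular layers and end as cornified cells. p63, the protein of Trp63, sets and keeps the basal keratinocyte identity. KLF4, GRHL1, GRHL3 and OVOL1 act mainly in cells that leave the basal layer, where they drive barrier genes and the exit from the cell cycle, whereas KLF5 is a factor of proliferating epithelial cells. C/EBPα and C/EBPβ are basic leucine zipper factors of the switch to spinous cells, and GATA3 acts in hair follicle fate and epidermal lipid synthesis. Several members also work in other cells of skin, as C/EBP factors do in adipocytes and myeloid cells, GATA3 in T cells and innate lymphoid cells, and KLF4 in fibroblasts and endothelium.

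Total counts per sample ran from 19608787 to 30561256, so the least abundant member, Ovol1 in untreated mouse skin, still had at least 719 counts per sample. The label of skin was checked on Krt5 and Krt14, keratins of basal keratinocytes, whose group means ran from 2129 to 9513 CPM. Markers of epithelium, muscle and follicles differed between treated and untreated skin. CPM are counts scaled to a common library size with TMM factors. A list of 12 genes, such as Cdh1, Dsp and Epcam, was taken as pan-keratinocyte. That each marks all keratinocytes of these samples was not checked. The list had a mean log2 CPM of 8.24 ± 0.27 in untreated and 9.45 ± 0.077 in treated mouse skin. In spiny mouse skin the means were 8.68 ± 0.11 and 8.91 ± 0.11 (SD, n = 4 each). The summed level of the 10 skeletal muscle markers was 11331 to 15659 CPM in untreated and 2546 to 3441 CPM in treated mouse skin, with 11449.5 to 14412 and 3736 to 7705 CPM for spiny mouse. Untreated mouse replicate 2, whose column name alone carries an unexplained suffix, stood apart. Its mean log2 CPM of 12 markers of growing (anagen) hair follicles was 6.91, against -0.33, 1.66 and -0.59 in the other untreated mouse samples and 9.61 to 9.71 in treated mouse skin. In spiny mouse the anagen markers went the other way with treatment. There the range was 5.56 to 8.76 in untreated and 3.38 to 6.87 in treated skin, with sums of 1223 to 12439 and 217 to 3601 CPM, beside 20.1 to 2733 and 23452 to 25889.8 CPM in mouse. Of these markers 11 of 12 were called higher in mouse and 4 of 11 lower in spiny mouse, and their part in the members' values was not tested. In whole skin, fewer cells of a type and less RNA per cell cannot be told apart.

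In mouse, 4 of the 9 factors, Ovol1, Cebpb, Grhl3 and Grhl1, were higher in treated than in untreated skin and none was lower at an adjusted p under 0.05. In spiny mouse, Grhl3, Cebpb and Klf5 were higher in treated skin and Klf4, Grhl1 and Gata3 were lower. Grhl3 and Cebpb therefore rose in both species, and Grhl1 rose in mouse and fell in spiny mouse. Over all genes, edgeR's quasi-likelihood test called 61.2% of 19740 genes in mouse (25.9% higher and 35.3% lower) and 55.1% of 14833 genes in spiny mouse (28.2% higher and 26.9% lower). Standard errors of the members' log2 fold changes were 0.12 to 0.31 in mouse and 0.089 to 0.13 in spiny mouse, so the precision differed and the counts of calls are not compared between the species. The 4 of 9 members called in mouse were below the share of all genes called, and the 6 of 9 in spiny mouse were above it. With 9 genes, neither departure is read as a result. The split of calls over all genes moved with the scaling. In mouse it was 5121 higher and 6964 lower with TMM, 3538 and 8831 when only library size was used and 3738 and 8517 after upper-quartile scaling. The median log2 fold change of the 9 was 0.49 in mouse and 0.17 in spiny mouse, beside -0.15 and -0.010 over all genes tested. The groups were apart, with no overlap between samples, for 6 members in mouse and 5 in spiny mouse, where the same held for 58.6% and 50.9% of all genes tested. Whether the change itself differed between the species was tested as a species by treatment interaction over 13656 shared symbols, and 4 members were called, Ovol1, Grhl1, Klf4 and Gata3, all with the lower value in spiny mouse and none with the higher (46.1% of all symbols were called, 24.7% with the lower and 21.4% with the higher value in spiny mouse). Over all symbols that interaction split was 2921 higher and 3369 lower with TMM, 4305 and 2201 when only library size was used, 3886 and 2460 after upper-quartile scaling and 2539 and 4459 without a filter.

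**Figure D1:**
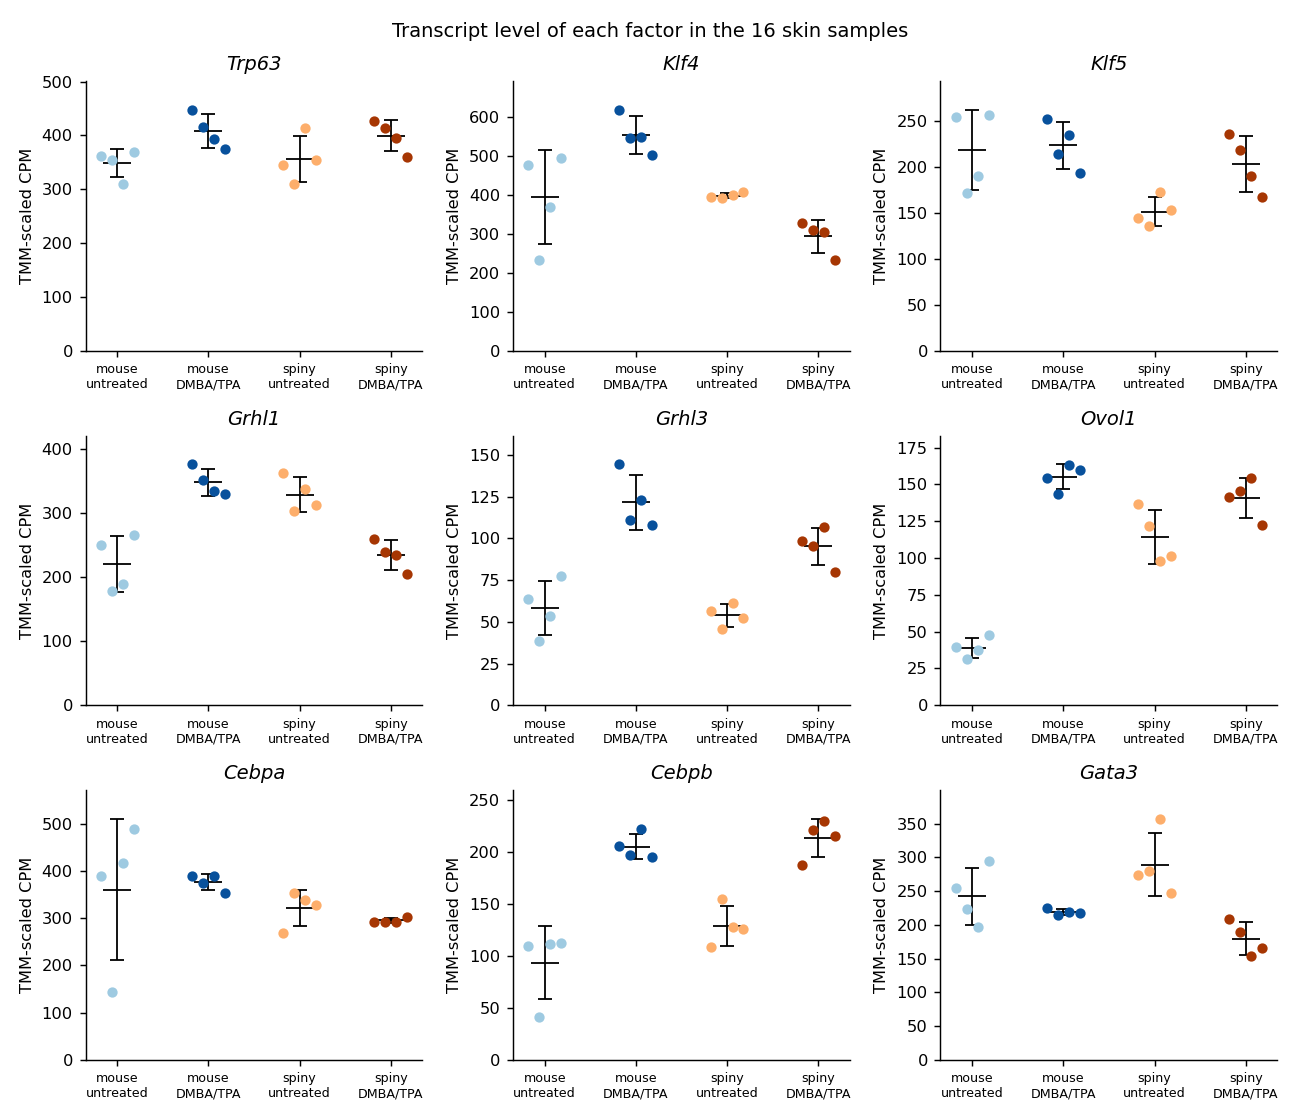
TMM-scaled CPM of the 9 factors (vertical axes, from 0) in the 4 groups (horizontal axes). Points are samples in replicate order and bars are mean ± SD of 4 samples. Ovol1 sits between 31.5 and 47.4 CPM in untreated and between 144 and 163 CPM in treated mouse skin, and untreated mouse replicate 2 is the lowest of its group for 7 of the 9 genes.

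Trp63, the gene of the basal lineage factor p63 (ENSMUSG00000022510, GRCm39 chromosome 16, 25502513 to 25710852; AcoCah2 scaffold_4, 84027639 to 84232961), was called in neither species. Replicates 1 to 4 had 361, 353, 310.4 and 369 CPM in untreated and 447, 416, 394 and 374 CPM in treated mouse skin. In spiny mouse they had 344, 311, 413 and 355 CPM in untreated and 426, 414, 396 and 360.4 CPM in treated skin. Treated mouse samples all lay above the untreated ones, by a small margin, whereas the spiny mouse groups overlapped. Log2 fold changes were 0.23 in mouse (SE 0.12, edgeR adjusted p 0.142) and 0.17 in spiny mouse (SE 0.10, edgeR adjusted p 0.179), and neither passed the threshold. Without untreated mouse replicate 2 the mouse value was 0.32 (edgeR adjusted p 0.0152), and without untreated spiny mouse replicate 3 the spiny mouse value was 0.25 (edgeR adjusted p 0.0446), both past the threshold. The interaction was -0.060 (SE 0.15, edgeR adjusted p 0.771). Counts per gene do not separate the TA and ΔN isoforms of Trp63, which start at different promoters.

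Klf4 and Klf5 encode zinc finger factors that bind similar CACCC-type sites, and a species difference was called for Klf4 and not for Klf5. For Klf4 (ENSMUSG00000003032, GRCm39 chromosome 4, 55527143 to 55532466; AcoCah2 scaffold_2, 123837382 to 123842234), a factor of barrier acquisition, untreated mouse skin had 477, 233, 369.7 and 496 CPM and treated mouse skin 618, 546, 547 and 502 CPM. Every treated mouse sample was above every untreated one, but the untreated samples spread widely and the log2 change of 0.49 (SE 0.23) did not pass the test (edgeR adjusted p 0.0892). Replicate 2 was the low untreated sample. Without it the log2 fold change was 0.39 (edgeR adjusted p 0.0143), past the threshold. In spiny mouse skin Klf4 was tight in untreated samples, with 394, 392, 399 and 407 CPM, and lower in all treated samples, with 327, 311, 305 and 233 CPM. That fall was -0.44 on the log2 scale (SE 0.10, edgeR adjusted p 0.00605), or 0.738 times the untreated level. The interaction of -0.93 (SE 0.26, edgeR adjusted p 0.00856) was called in the main test and in 24 of 24 alternatives. Of 6 fibroblast markers, 3 were called lower and 1 higher in spiny mouse, and 2 lower and 0 higher in mouse. Of 5 endothelial markers, 2 were called lower and 0 higher in each species. The part of these cells in the Klf4 values was not tested.

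Klf5 (ENSMUSG00000005148, GRCm39 chromosome 14, 99536127 to 99552472; AcoCah2 scaffold_6, 23123756 to 23139026) was called higher in treated skin of the spiny mouse only, which is no test of the difference. Mouse samples had 254, 172, 191 and 257 CPM without treatment and 253, 214, 235 and 194 CPM with it, with overlapping groups and a log2 change of 0.034 (SE 0.16, edgeR adjusted p 0.869). In spiny mouse the values were 144, 136, 173 and 154 CPM in untreated and 236, 218, 190.0 and 167 CPM in treated skin, a rise of 0.42 on the log2 scale (SE 0.12, edgeR adjusted p 0.0129). The groups overlapped there too, since treated replicate 4 was below untreated replicate 3. The interaction for Klf5 was 0.39 (SE 0.21, edgeR adjusted p 0.134) and was not called. With upper-quartile scaling or library size alone, which shifted the median mouse log2 fold change of all genes by -0.20 and -0.24, the Klf5 interaction was 0.55 and 0.60 and was called (edgeR adjusted p 0.0276 and 0.0164).

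Grhl1 and Grhl3 encode grainyhead-like factors, which activate genes of cell adhesion and cornification, and Grhl3 is needed for a closed skin barrier. RefSeq promoter windows of the mouse genes are shown because these related genes both rose in mouse and moved in opposite directions in spiny mouse. Each window holds 250 bases before and 50 bases after a transcript start, read 5′ to 3′ on the gene's strand from RefSeq's table for the GRCm38.p6 build, and capitals mark CACCC boxes, the core bound by KLF factors, on either strand. The Grhl3 window lies at chr4:135573583-135573882 on the minus strand, and Grhl1 has a window at chr12:24572037-24572336 and one at chr12:24580469-24580768, both on the plus strand.
Grhl3: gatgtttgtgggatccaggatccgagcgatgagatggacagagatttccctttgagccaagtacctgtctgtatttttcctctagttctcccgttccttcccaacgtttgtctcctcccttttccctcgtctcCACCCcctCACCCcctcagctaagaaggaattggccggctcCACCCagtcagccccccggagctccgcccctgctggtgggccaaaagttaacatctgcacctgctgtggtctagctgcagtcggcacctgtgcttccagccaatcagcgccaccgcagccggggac
Grhl1 first start: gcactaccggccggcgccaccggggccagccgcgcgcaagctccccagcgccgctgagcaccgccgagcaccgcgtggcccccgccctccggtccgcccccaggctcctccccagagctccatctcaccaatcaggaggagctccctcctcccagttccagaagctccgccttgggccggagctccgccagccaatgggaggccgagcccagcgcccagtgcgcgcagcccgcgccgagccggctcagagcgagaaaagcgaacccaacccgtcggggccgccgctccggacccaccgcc
Grhl1 second start: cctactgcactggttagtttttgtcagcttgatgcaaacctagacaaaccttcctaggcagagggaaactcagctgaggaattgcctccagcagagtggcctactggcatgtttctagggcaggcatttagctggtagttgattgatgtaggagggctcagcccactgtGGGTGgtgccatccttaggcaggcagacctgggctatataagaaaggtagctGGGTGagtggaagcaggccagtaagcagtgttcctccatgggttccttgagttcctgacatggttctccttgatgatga
The Grhl3 window holds 3 CACCC boxes, whose first bases are 117, 109 and 76 bases before the start. The first Grhl1 window holds none and is 75.3% G and C, and the second, at 51.3%, holds the box on the opposite strand (GGGTG) at 81 and 29 bases before the start. Windows were given for 6 of the 9 members, 7 windows in all, and 5 of these held CACCC on either strand, as did 57.5% of all 32851 windows in the table. Of 5 further motifs, searched on both strands, none matched in the 7 windows. The grainyhead-like site AACNNGTT is held by 4.2% of all windows. The C/EBP site TTGCNNAA is held by 10.8% of them. For the GATA factors' motif, AGATAA, the share is 11.2%. The OVOL motif CCGTTA is held by 2.76% of windows. For TGANTCA, the AP-1 site known as the TPA response element, the share is 7.81%.

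Grhl3 (ENSMUSG00000037188, GRCm39 chromosome 4, 135269199 to 135300941; AcoCah2 scaffold_15, 32707940 to 32740959) rose in both species. Untreated mouse skin had 63.9, 38.5, 53.5 and 77.3 CPM and treated mouse skin 144, 111, 123 and 107.7 CPM, without overlap, a 2.08-fold rise (log2 fold change 1.06, SE 0.20, edgeR adjusted p 0.00181). In spiny mouse the untreated samples had 56.4, 45.4, 61.1 and 52.2 CPM and the treated ones 98.3, 95.3, 107 and 80.01 CPM, again without overlap, a 1.77-fold rise (log2 fold change 0.82, SE 0.11, edgeR adjusted p 0.000302). The interaction was -0.24 (SE 0.24, edgeR adjusted p 0.445), so a difference between the rises was not shown. Grhl1 (ENSMUSG00000020656, GRCm39 chromosome 12, 24622282 to 24667390; AcoCah2 scaffold_1, 124783926 to 124833921) moved in opposite directions. In mouse it went from 250.1, 179, 189 and 266 CPM to 376, 352, 334 and 330.0 CPM, and in spiny mouse from 362, 303, 338 and 312 CPM to 260.2, 239.8, 234 and 204 CPM. Groups did not overlap in either species, with treated samples the higher ones in mouse and the lower ones in spiny mouse. The log2 fold changes were 0.65 (SE 0.16, edgeR adjusted p 0.00595) and -0.49 (SE 0.092, edgeR adjusted p 0.00178). Their difference of -1.14 (SE 0.18, edgeR adjusted p 0.000128) was called in all 24 alternatives run.

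Ovol1 (ENSMUSG00000024922, GRCm39 chromosome 19, 5599164 to 5610674; AcoCah2 scaffold_17, 51902252 to 51914092), a zinc finger repressor of the cell cycle in cells leaving the basal layer, showed the largest change of the 9 in mouse. Untreated mouse samples had 39.6, 31.5, 37.3 and 47.4 CPM and treated ones 154, 144, 163 and 159.8 CPM, so the lowest treated sample was far above the highest untreated one. The rise was 3.98-fold (log2 fold change 1.99, SE 0.13, edgeR adjusted p 9.14e-06). Spiny mouse skin had 137, 121, 98.2 and 101 CPM without and 141, 145, 155 and 123 CPM with treatment, overlapping ranges with a log2 change of 0.30 (SE 0.12) that fell just short of the threshold (edgeR adjusted p 0.0525). It passed in 6 of 16 alternatives, among them the fits without untreated replicate 1 (0.39, edgeR adjusted p 0.0145) and without treated replicate 4 (0.37, edgeR adjusted p 0.0301), and the adjusted p ranged from 0.0145 to 0.132. The interaction was -1.69 (SE 0.18, edgeR adjusted p 4.09e-06), the largest of the 9, and was called in 24 of 24 alternatives. Exons of Ovol1 share 2.18% and 19.95% of their bases with 2 lowly counted genes on the other strand in the mouse annotation (at most 27 counts per sample) and 2.57% with Ap5b1 in that of the spiny mouse. Read pairs that overlap both genes were not counted.

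**Figure D2:**
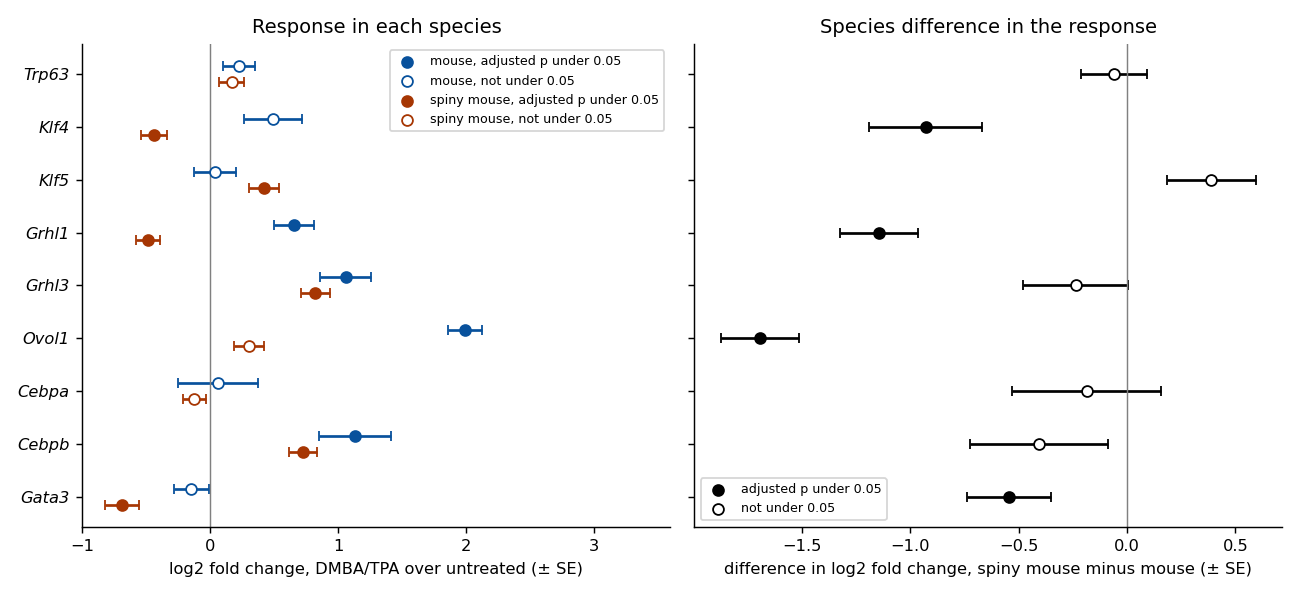
Log2 fold change of each factor on DMBA/TPA treatment (left, mouse in blue and spiny mouse in orange-brown) and the difference between the species (right, spiny mouse minus mouse), as points with SE bars, filled where edgeR's adjusted p was under 0.05. Ovol1 at 1.99 in mouse and 0.30 in spiny mouse gives the largest difference, -1.69.

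Of the C/EBP genes, Cebpb rose in both species and Cebpa was called in neither. The Cebpb promoter window of RefSeq, at chr2:167688665-167688964 on the plus strand (GRCm38.p6), is shown beside that of Grhl3 as the other member called higher in both species. Capitals again mark CACCC boxes on either strand, whose first bases lie 177 and 38 bases before the start.
Cebpb: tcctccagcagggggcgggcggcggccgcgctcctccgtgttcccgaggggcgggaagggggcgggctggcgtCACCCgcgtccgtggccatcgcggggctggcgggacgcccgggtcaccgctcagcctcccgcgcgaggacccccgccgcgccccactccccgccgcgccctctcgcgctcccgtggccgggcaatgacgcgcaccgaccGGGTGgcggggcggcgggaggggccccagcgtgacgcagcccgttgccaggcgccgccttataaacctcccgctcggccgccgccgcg
Cebpb (ENSMUSG00000056501, GRCm39 chromosome 2, 167530835 to 167532338; AcoCah2 scaffold_1, 67517099 to 67518608) had 109, 41.05, 112 and 113 CPM in untreated and 206, 198, 222 and 195 CPM in treated mouse skin. All treated samples were higher, and untreated replicate 2 was far below its group. The log2 fold change was 1.13 (SE 0.28, edgeR adjusted p 0.00683), and 0.97 without that sample (edgeR adjusted p 7.52e-07). Spiny mouse samples went from 108.2, 155, 128 and 127 CPM to 188, 222, 230.0 and 216 CPM, without overlap, a log2 change of 0.73 (SE 0.11, edgeR adjusted p 0.000575). The interaction for Cebpb was -0.41 (SE 0.32, edgeR adjusted p 0.315). In the mouse annotation 20.74% of the exonic bases of Cebpb are shared with Peds1 on the opposite strand, and read pairs that overlap both were not counted.

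Cebpa (ENSMUSG00000034957, GRCm39 chromosome 7, 34818718 to 34821353; AcoCah2 scaffold_19, 19950121 to 19952880), also a factor of fat cells, myeloid cells and liver, had 391, 144, 418 and 490.2 CPM in untreated and 389.6, 374, 389 and 353 CPM in treated mouse skin. The untreated group spread widely, with replicate 2 far below the other samples, and the log2 change of 0.062 (SE 0.31, edgeR adjusted p 0.874) became -0.11 without it (edgeR adjusted p 0.333). In spiny mouse Cebpa had 268, 354, 339 and 328 CPM and 292, 293, 293 and 304 CPM, with overlap and a log2 change of -0.13 (SE 0.089, edgeR adjusted p 0.257). Without untreated spiny mouse replicate 1 it was -0.21 and called (edgeR adjusted p 0.0322). The interaction of -0.19 had an SE of 0.34 and an edgeR adjusted p of 0.685.

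Markers of other cells that use C/EBP factors moved as well. The mean log2 CPM of 9 adipocyte markers was 5.08 in untreated mouse replicate 2 and 6.80, 6.76 and 7.18 in replicates 1, 3 and 4, and the group means without and with treatment were 6.45 ± 0.94 and 5.31 ± 0.47 in mouse, where 6 of the 9 were called lower, and 7.33 ± 0.073 and 6.54 ± 0.23 in spiny mouse, where 5 were. Their sums were 547 to 2287 CPM in untreated and 408 to 822 CPM in treated mouse skin, with 2025 to 2229 and 1061 to 1427 CPM for spiny mouse. Myeloid markers had a mean log2 CPM of 4.53 ± 0.73 without and 5.84 ± 0.15 with treatment in mouse (9 genes) and of 4.14 ± 0.12 and 6.16 ± 0.11 in spiny mouse (8 genes), with untreated mouse replicate 2 lowest at 3.50. Their sums were 406 to 1246 CPM and 1390.3 to 2239 CPM in mouse, with 314 to 338 and 2519 to 2816 CPM for spiny mouse. Of these myeloid markers, 3 were called higher and 2 lower in mouse, and 5 higher and 0 lower in spiny mouse. The median log2 fold change of the myeloid list in mouse, -0.34, was opposite in sign to the change of its mean. Summed hepatocyte markers were 708, 22.02, 47.8 and 207 CPM in untreated mouse replicates 1 to 4 and 6.42 to 10.8 CPM in treated mouse skin, with 40.7 to 55.8 and 25.4 to 35.5 CPM for spiny mouse. Replicates 1 and 4 were thus the high ones, with Cebpa at 391 and 490.2 CPM, beside 144 and 418 CPM in replicates 2 and 3. No listed marker of adipocytes or myeloid cells was at 0 in all samples of a group, whereas the hepatocyte marker Fgb was at 0 in all treated mouse samples and Apoa1 in all treated spiny mouse samples. The part of these cells in the C/EBP values was not tested.

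Gata3 (ENSMUSG00000015619, GRCm39 chromosome 2, 9861889 to 9894845; AcoCah2 scaffold_8, 118482147 to 118512428) fell in spiny mouse skin. There the untreated samples had 274, 279.8, 357 and 246 CPM and the treated ones 208, 189.6, 154 and 165 CPM, with every treated sample lower. The log2 fold change was -0.69 (SE 0.13, edgeR adjusted p 0.00197), or 0.620 times the untreated level. Mouse samples had 254, 223, 197 and 295 CPM and 225, 214, 218 and 217 CPM, where the treated samples were close together inside the untreated range (log2 fold change -0.15, SE 0.14, edgeR adjusted p 0.379). The species difference of -0.54 (SE 0.19, edgeR adjusted p 0.0304) was the least firm of the 4 called. It was called in 18 of 24 alternatives, and lost with upper-quartile scaling (-0.38, edgeR adjusted p 0.107), with library size alone (-0.33, edgeR adjusted p 0.164) and with the replicate number as a block (-0.55, edgeR adjusted p 0.0548). It was also lost without untreated spiny mouse replicate 3 (-0.43, edgeR adjusted p 0.0685), treated replicate 3 (-0.48, 0.0669) or treated replicate 4 (-0.49, 0.0652). T cell and innate lymphoid markers, cells that also express Gata3, moved the other way in spiny mouse. There 5 of the 7 such genes measured were called higher and none lower, and their sum was 382 to 457 CPM in untreated and 996 to 1329 CPM in treated skin. In mouse 6 of 10 were called lower, with overlapping sums of 72.7 to 139 and 108.4 to 139 CPM. The part of these cells in the Gata3 values was not tested.

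Because the members fall into related groups, their ratios were taken within each sample, where library scaling cancels. The log2 ratio of Klf4 to Klf5, as counts per kilobase of exon, rose in mouse from 1.58 ± 0.25 to 2.08 ± 0.068 and fell in spiny mouse from 0.58 ± 0.14 to -0.29 ± 0.10 (SD, n = 4). Its ranges did not overlap in either species, 1.21 to 1.73 against 1.99 to 2.14 in mouse and 0.38 to 0.71 against -0.35 to -0.14 in spiny mouse. Grhl1 to Grhl3 fell in both species. It went from 0.96 ± 0.20 to 0.53 ± 0.14 in mouse, and spiny mouse skin had 2.16 ± 0.12 without and 0.85 ± 0.12 with treatment. Cebpa to Cebpb also fell in both, with 1.11 ± 0.14 without and 0.066 ± 0.053 with treatment in mouse, where spiny mouse had 0.45 ± 0.10 and -0.40 ± 0.13. Each of the 6 changes had an exact two-sided permutation p of 0.0286, the smallest that 4 against 4 samples allow, and a Benjamini-Hochberg adjusted p of 0.0286 over the 6. Untreated mouse replicate 2, low for both C/EBP genes, was near its group in their ratio, at 1.003 against 1.03, 1.09 and 1.31 in replicates 1, 3 and 4, whereas its Klf4 to Klf5 ratio of 1.21 was the lowest of the group. The ratios of the species were not set against each other, since the annotated exons of Klf5 are 5201 bases in mouse and 1702 in spiny mouse.

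**Figure D3:**
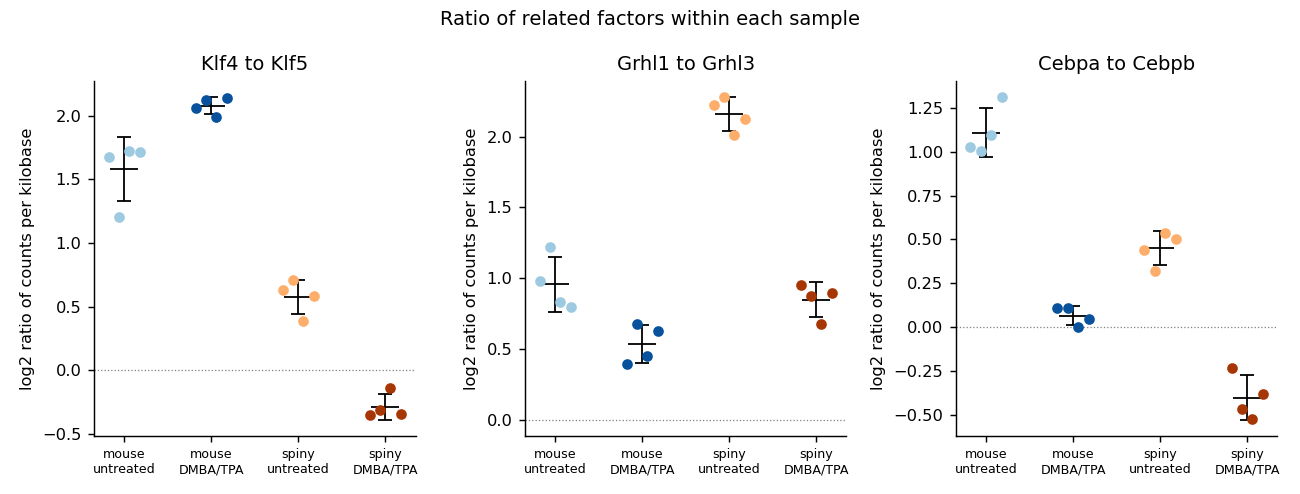
Log2 ratio of counts per kilobase of Klf4 to Klf5, Grhl1 to Grhl3 and Cebpa to Cebpb (vertical axes) in each sample of the 4 groups (horizontal axes), with bars for mean ± SD of 4 samples. Klf4 to Klf5 moves up with treatment in mouse and down in spiny mouse, and Cebpa to Cebpb falls from 1.11 to 0.066 in mouse.

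The order of the levels within a group was taken per kilobase of exon, as TMM-scaled CPM per kilobase (mean ± SD, n = 4). In untreated mouse skin Cebpa (137 ± 56.99) and Klf4 (129 ± 39.6) were highest and did not differ beyond their ranges. Cebpb (62.3 ± 23.3) and Gata3 (60.9 ± 10.6) followed with overlapping ranges, then Klf5 (42.03 ± 8.38), Trp63 (41.5 ± 3.14) and Grhl1 (39.9 ± 7.86), each overlapping the next. Grhl3 (20.9 ± 5.88) and Ovol1 (11.2 ± 1.89) were lowest, each below its neighbour without overlap. Klf4 (181 ± 15.7) was highest in treated mouse skin, with Cebpa (143 ± 6.46) and Cebpb (137 ± 8.10) behind it and overlapping each other. Grhl1 (62.8 ± 3.79), Gata3 (54.99 ± 1.15) and Trp63 (48.6 ± 3.75) came next, without overlap among them. Ovol1 (44.5 ± 2.43), Grhl3 (43.6 ± 5.93) and Klf5 (43.03 ± 4.90) closed the order of treated mouse skin with overlapping ranges. In untreated spiny mouse skin Klf4 (132 ± 2.24) was above all others without overlap. Cebpa (117 ± 13.6), Klf5 (89.02 ± 9.28), Grhl1 (86.2 ± 7.003), Cebpb (85.7 ± 12.8) and Gata3 (75.3 ± 12.3) followed, each overlapping the next, with Trp63 (51.9 ± 6.25) below them without overlap. Grhl3 (19.3 ± 2.39) and Ovol1 (34.1 ± 5.42) were again lowest. In treated spiny mouse skin Cebpb (142 ± 12.1), Klf5 (119 ± 17.96), Cebpa (107 ± 1.99) and Klf4 (97.5 ± 13.9) led, each overlapping the next, and Grhl1 (61.5 ± 6.06), Trp63 (58.3 ± 4.19), Gata3 (46.7 ± 6.33), Ovol1 (42.1 ± 4.03) and Grhl3 (34.2 ± 4.04) followed, also overlapping in turn. The tables of the species were normalized separately, so these levels were compared within a species only.

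**Figure D4:**
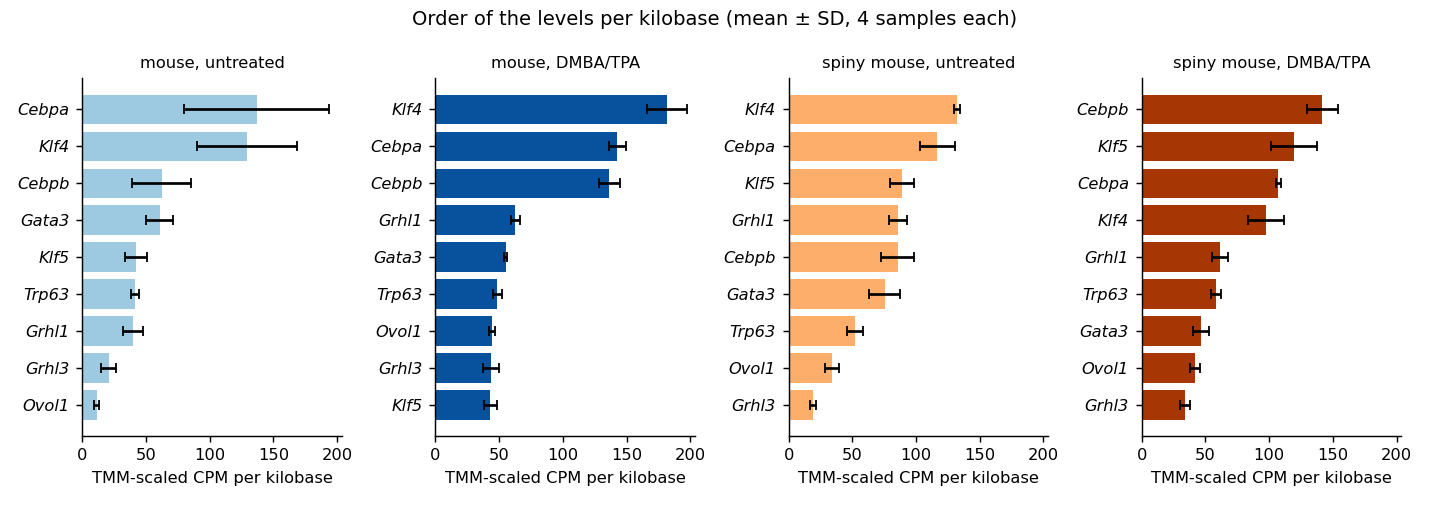
Levels of the 9 factors per kilobase of exon in each group, ordered from highest to lowest (horizontal axes, TMM-scaled CPM per kilobase, from 0; bars are means and error bars SD of 4 samples). Klf4 leads in treated mouse skin at 181 and in untreated spiny mouse skin at 132, and stands below Cebpb, Klf5 and Cebpa in treated spiny mouse skin at 97.5.

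Since epithelial markers moved with treatment, each member was also set against the 12 pan-keratinocyte genes, as its log2 CPM minus their mean in the same sample. All 12 of these genes were called higher in treated mouse skin, with a median log2 change of 1.04, and 6 higher and 2 lower in spiny mouse skin, with a median of 0.22. On this scale 6 members were lower in treated mouse skin. The differences were -1.34 for Gata3, -1.16 for Klf5, -1.01 for Cebpa, -0.98 for Trp63, -0.66 for Klf4 and -0.53 for Grhl1. Ovol1 was higher by 0.80, and Grhl3 (-0.11, exact permutation p 0.286) and Cebpb (0.034, exact permutation p 0.971) did not pass. Spiny mouse skin had lower Gata3 (-0.91), Grhl1 (-0.71) and Klf4 (-0.68) and higher Grhl3 (0.60) relative to the list, and the other 5 members did not pass. Each difference that passed had the smallest exact two-sided permutation p, 0.0286, and an adjusted p of 0.0468 over the 18 tests. Anagen markers also rose in treated mouse skin, and their part in the reference was not tested. The values depended on the reference. Krt5 and Krt14, keratins of the basal layer, rose strongly in both species, and against these alone Grhl3 was lower in treated spiny mouse skin (-0.54, exact permutation p 0.0286), as were all 9 members, while in mouse 7 were lower and Ovol1 was still higher, by 0.49. Gata3, Klf4 and Grhl1 were lower in both species against either reference.

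**Figure D5:**
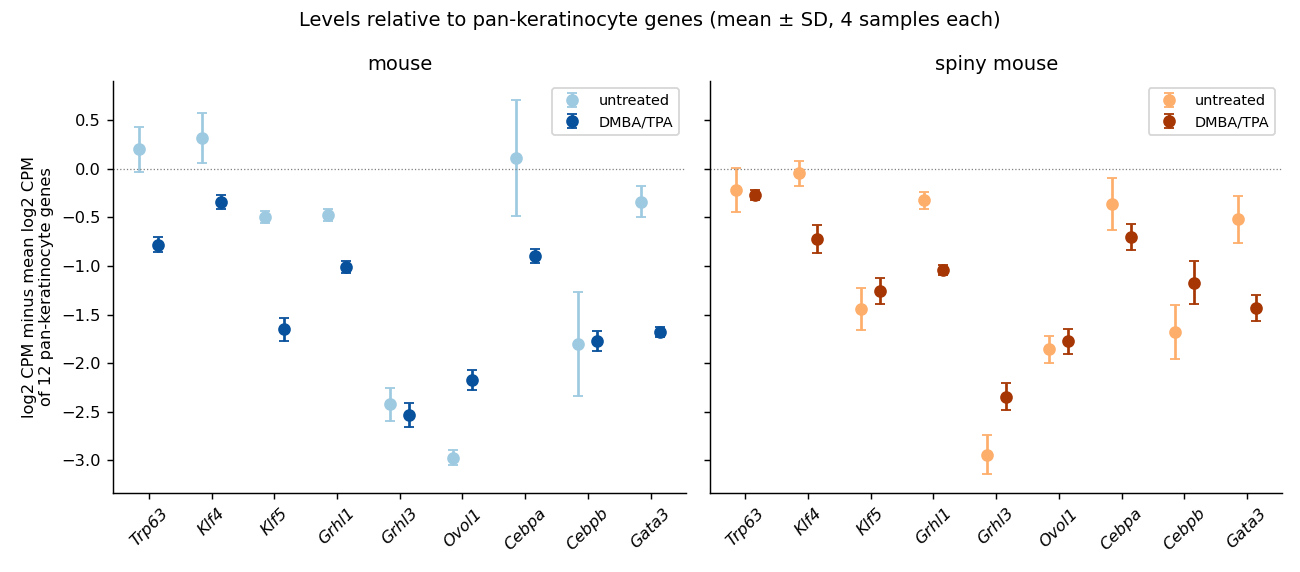
Level of each factor relative to 12 pan-keratinocyte genes (vertical axis, log2 CPM minus the mean log2 CPM of the list) in untreated and treated skin of each species, as mean ± SD of 4 samples. In mouse 6 factors are lower in treated skin and Ovol1 is higher, and in spiny mouse Grhl3 is higher by 0.60 and Klf4, Grhl1 and Gata3 are lower.

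Of 26 partner and upstream regulators of the same program, 17 were called higher and 4 lower in treated mouse skin, and 7 higher and 6 lower in spiny mouse skin. The median log2 fold change of the list was 0.69 in mouse and 0.13 in spiny mouse, beside -0.15 and -0.010 over all genes. The species difference was called for 17 of the 26, 13 of them smaller in spiny mouse. Of all symbols 46.1% were called, 24.7% with the lower value in spiny mouse. Dlx3, a homeobox factor of hair follicles and suprabasal cells, went from 31.7 ± 26.8 to 379 ± 12.8 CPM in mouse, the log2 change being 3.58 (SE 0.49, edgeR adjusted p 0.000303). In spiny mouse Dlx3 had 79.5 ± 44.96 CPM without and 26.1 ± 9.54 CPM with treatment, a log2 change of -1.60 (SE 0.43, edgeR adjusted p 0.0115). The anagen markers moved in the same directions as Dlx3 in each species, and their part in its values was not tested. Elf3, an epithelial ETS factor, rose in spiny mouse from 4.56 ± 0.321 to 41.4 ± 16.9 CPM (3.18 on the log2 scale) and in mouse from 0.744 ± 0.0898 to 10.6 ± 2.18 CPM (3.82). Satb1, a chromatin organizer that p63 maintains, fell in mouse from 52.6 ± 7.003 to 7.77 ± 0.738 CPM (-2.76 on the log2 scale, edgeR adjusted p 2.51e-06). In spiny mouse Satb1 had 54.5 ± 10.5 and 52.7 ± 5.79 CPM. Of the T cell and innate lymphoid markers, 6 of 10 were called lower and 0 higher in mouse, with overlapping sums. The part of such cells, or of p63, in the Satb1 values was not tested. Zfp750, which p63 activates and which acts with KLF4, rose by 1.31 on the log2 scale in mouse (edgeR adjusted p 7.54e-05) with a value of 0.18 in spiny mouse (edgeR adjusted p 0.252).  Grhl2 had log2 fold changes of 0.45 (called) and 0.18 (not called), and Ovol2, at 4.08 ± 0.475 CPM in untreated mouse skin, had -0.97 (called) and -0.086 (not called).

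Genes of the layers that these factors act in were counted from fixed lists, to be read beside 61.2% of all genes called in mouse and 55.1% in spiny mouse. Among 15 basal and p63 target genes, 7 were called higher and 4 lower in mouse, and 9 higher and 4 lower in spiny mouse, with median log2 fold changes of 0.32 and 0.39. Krt14 rose by 2.16 and 1.78 on the log2 scale, Cdh3 (P-cadherin) by 1.92 and 2.05, and Krt15, a keratin of resting basal and bulge cells, changed by -2.05 and -1.64, all 3 called in both species. Of 10 spinous genes, 4 were called higher and none lower in mouse, and of the 9 tested in spiny mouse 2 were higher and 1 lower. Krt1, the keratin of early differentiation, rose by 2.19 in mouse and 0.65 in spiny mouse, and its interaction was -1.55 (edgeR adjusted p 0.00184). Dsg1b, a desmoglein, rose by 1.70 in mouse, and Calml3 rose by 1.69 in mouse and changed by -0.93 in spiny mouse, both called. Of these 3 lists the granular and cornified genes had the largest median in mouse, 1.72, with 12 of 19 genes higher and 4 lower, against 0.17 in spiny mouse, with 8 of 18 higher and 5 lower. The interaction was called for 10 of 17, 9 of them smaller in spiny mouse, beside 46.1% of all symbols. Sprr1b rose by 4.34 and 2.94, Lce3c by 4.004 in mouse, and Lce1m changed by -3.62 and -4.64, each called. Sprr and Lce genes have near copies in the genome, and so does Dsg1b, so their counts are uncertain.

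The shared symbols whose levels followed each member most closely were ranked by Pearson correlation of log2 CPM over the 16 samples, after centring on each species' mean, among 9944 genes. These points share treatment and libraries, so the values only describe likeness. The leading genes were Eif3c (r = 0.992) and Krt17 (r = 0.991) for Ovol1, Tbcb (r = 0.981) and Arpc4 (r = 0.981) for Cebpb, Plbd1 (r = 0.979) and Ppp2r2a (r = 0.976) for Grhl3 and Dlg3 (r = 0.970) and Krt80 (r = 0.965) for Grhl1. Pcsk6 (r = 0.955) was among the leading genes for Klf4. The leading genes for Cebpa were Il17rc (r = 0.959) and Slc35e4 (r = 0.956), for Trp63 Rfc1 (r = 0.943) and Ccdc47 (r = 0.937), for Klf5 Cog6 (r = 0.913) and Sbsn (r = 0.909) and for Gata3 Edaradd (r = 0.898) and Wnt3 (r = 0.889). For Gata3 and Cebpa the likeness was uneven between the species. Within mouse, Gata3 had r = 0.556 with Edaradd and 0.675 with Wnt3, against 0.947 and 0.924 within spiny mouse. Cebpa had r = 0.660 with Il17rc and 0.771 with Slc35e4 within spiny mouse, against 0.981 and 0.970 within mouse. Krt17, near the top for Ovol1, is a keratin of stressed and follicular keratinocytes and Krt80 a keratin of differentiating cells. Among the members themselves, Klf4 and Grhl1 were the most alike (r = 0.908), followed by Grhl3 and Cebpb (r = 0.895) and by Grhl3 and Ovol1 (r = 0.832).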

How the data were processed

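Raw fragment counts per gene were deposited by the authors as 1 table per species. Per the file headers, featureCounts 2.0.3 counted read pairs with both ends mapped, on GRCm39 with Ensembl annotation 108 for mouse and on AcoCah2 for spiny mouse. Per the submitters' processing notes, reads were trimmed with Trim Galore and aligned with HISAT2, versions not given in the sources used here. The headers show no strand option, so opposite-strand overlaps could not be told apart, and pairs that overlap 2 genes or map to several places were not counted. Untreated columns carry a code that the labels do not explain and were matched by species letter and replicate number. The column of untreated mouse replicate 2, the sample that stood apart, has a further suffix that no other column has and that the labels do not explain. Mouse symbols came from GENCODE M39 (56236 of 56980 identifiers named). The deposited gene lengths gave values per kilobase.

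Counts were filtered with filterByExpr, scaled with TMM and tested with edgeR 4.0.16 (quasi-likelihood F test, R 4.3.3), as treated over untreated within each species and as a species by treatment interaction, with Benjamini-Hochberg adjustment over all genes tested and a threshold of 0.05. SE is the log2 fold change divided by the square root of F. Levels are TMM-scaled CPM, mean ± SD. Log2 CPM used a prior count of 2. Ratios and relative levels were compared with exact permutation tests (scipy 1.17.1). DESeq2 1.42.0, other scalings, filters, a robust fit, a replicate block and leaving out each sample were alternatives. Members and lists were chosen with earlier results of these data known. Named list genes were the up to 3 called genes of each list with the largest log2 fold change in either species and an average log2 CPM of at least 3, plus Grhl2, Ovol2, Zfp750 and 1 gene that is not reported here. The fits were tested on simulated data with known changes. Per fold, 66 or 67 genes were changed among 19315 tested in mouse and among 14688 in spiny mouse. For the interaction, 62 to 64 were changed per fold among 13518, in spiny mouse only. A 1.5-fold change was recovered in 3% of changed genes in mouse, 49.3% in spiny mouse and 6.5% for the interaction. For a 2-fold change the shares were 49.3%, 86.6% and 50%, and for a 4-fold change 97%, 93.9% and 98.4%. Of all calls in the simulated data 2.9%, 7.8% and 4.9% were false. In the real data 61.2%, 55.1% and 46.1% of genes were called, far more than were changed here. The simulated shares therefore need not hold for the real data. A member that was not called may still have changed by a small fold. Library totals of 19608787 to 30561256 set a floor of 3 counts at 0.0982 to 0.153 CPM, which covers counting error only.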

Additional observations from a re-analysis of the deposited data

Results flagged for a closer look

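The change on treatment differed between the species for 4 members in edgeR's interaction test. Spiny mouse minus mouse, the difference in log2 fold change was -1.69 for Ovol1, -1.14 for Grhl1, -0.93 for Klf4 and -0.54 for Gata3. The 12 pan-keratinocyte genes had a median difference of -0.88, with 10 called lower and 0 higher. Relative to these genes, Klf4 changed by -0.66 in mouse and -0.68 in spiny mouse, and Grhl1 by -0.53 and -0.71. On that scale Gata3 changed by -1.34 and -0.91, and Ovol1 by 0.80 and 0.084. Species differences on that scale were not tested. The log2 ratio of Klf4 to Klf5 changed by 0.50 in mouse and by -0.87 in spiny mouse, with every treated sample above the untreated ones in mouse and below them in spiny mouse. That difference between the species was not tested.

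Single samples far from the other 3 of their group were looked for in 36 groups (9 members in 4 groups), where chance alone picks out about 1 in 20, and 2 were found. Cebpb in untreated mouse replicate 2 was 41.05 CPM, with a gap of 0.952 of the group's range. Cebpa in treated spiny mouse replicate 4 was 304 CPM, with a gap of 0.910 of a narrow range that began at 292 CPM.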

How the results depend on the processing

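The 4 mouse calls, the 6 spiny mouse calls and the interactions of Klf4, Grhl1 and Ovol1 kept their direction and their call in all alternatives run (16, 16 and 24). The labels do not say whether replicate numbers pair samples. Samples that share a number correlated, in their departures from the group mean, at -0.0080 to 0.023 in mouse and at -0.53 to -0.20 in spiny mouse. Samples with different numbers correlated at -0.15 to 0.12 in mouse and at -0.53 to 0.53 in spiny mouse. These values cannot settle whether samples were paired. With the replicate block, log2 fold changes of the called mouse members were 0.67 for Grhl1, 1.10 for Grhl3, 2.01 for Ovol1 and 1.23 for Cebpb, and the block ended only the Gata3 interaction. With upper-quartile scaling or library size alone, 1 member was called lower in mouse (Gata3, -0.35 and -0.38) and 1 had a larger response in spiny mouse (Klf5). Under these scalings values near 0 changed sign: in mouse Klf5 to -0.16 and -0.20, Cebpa to -0.12 and -0.16 and, with library size alone, Trp63 to -0.014, and for the interaction Trp63 to 0.11 and 0.16 and Cebpa, with library size alone, to 0.013. Leaving out 1 sample gave -0.0042 to 0.15 for Klf5 and -0.11 to 0.25 for Cebpa in mouse, and -0.16 to 0.021 for the Trp63 interaction. Klf4 in mouse was called with DESeq2 size factors (0.59), without a filter (0.63) and by DESeq2 (0.59), and Trp63 by DESeq2 (0.32). Against Krt5 and Krt14 in place of the pan-keratinocyte list, Cebpb in mouse was -0.28, and in spiny mouse Klf5 was -0.95, Grhl3 -0.54, Ovol1 -1.05 and Cebpb -0.63, each opposite in sign to the value against the list. Beyond what the scalings and references themselves construct, the cause was not tested. The 6 family ratios kept their direction when any 1 sample was left out. Relative to the pan-keratinocyte list, leaving out 1 sample gave -0.22 to 0.20 for Cebpb in mouse and -0.12 to 0.033 for Trp63 in spiny mouse.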

Other observations

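A mixed list of 10 genes linked to repression by OVOL and GRHL factors was counted. It holds genes of the epithelial-to-mesenchymal transition (Zeb1, Zeb2, Snai1, Snai2, Twist1, Twist2, Vim and Cdh2) and also Myc, a driver of cell growth, and Id2, an inhibitor of basic helix-loop-helix factors. In treated mouse skin 4 were called lower and 3 higher, and in spiny mouse skin 0 lower and 2 higher. Over all genes tested, 61.2% were called in mouse and 55.1% in spiny mouse. The medians of the list were -0.49 and 0.10. Those higher in mouse were Snai2 (0.94 on the log2 scale), Myc (0.86) and Snai1 (0.71), and those higher in spiny mouse were Cdh2 (0.94) and Myc (0.45). These genes were named after their values were seen. Zeb1 had 43.7 ± 2.78 CPM in untreated and 18.9 ± 1.54 CPM in treated mouse skin, a log2 change of -1.21 (edgeR adjusted p 1.98e-05). Zeb2 fell by 1.19 on the log2 scale in mouse (edgeR adjusted p 3.06e-05), and Twist1 by 1.13 (edgeR adjusted p 0.00727). In spiny mouse the log2 fold changes were -0.33 for Zeb1, 0.019 for Zeb2 and -0.42 for Twist1, none of them called. The interaction was called for 5 of the 10, in both directions, which is near the 46.1% of all symbols called. It was higher in spiny mouse for Cdh2 (2.08, edgeR adjusted p 0.000352), Zeb2 (1.21, 1.18e-05) and Zeb1 (0.88, 0.000651), and lower for Snai2 (-0.72, 0.0105) and Myc (-0.41, 0.0296). Zeb1, Zeb2 and Twist1 are expressed by fibroblasts, and the mean log2 CPM of 6 fibroblast markers was 9.89 ± 0.48 without and 9.45 ± 0.21 with treatment in mouse, with 9.25 ± 0.24 and 8.54 ± 0.22 for spiny mouse (SD, n = 4 each). The part of fibroblast content in these values was not tested.

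In untreated mouse skin, replicate 2 was the lowest sample for 7 members and replicate 4 the highest for all 9, and their pan-keratinocyte means were 7.93 and 8.53 log2 CPM, the lowest and the highest of that group. Treated spiny mouse replicate 4 was the lowest for 6 members and had the lowest pan-keratinocyte mean of its group, 8.79. In the other groups the sample that was lowest for most members did not have the lowest mean. Treated mouse replicate 4 was the lowest for 7 members with a mean of 9.42, above the 9.39 of replicate 2, and untreated spiny mouse replicate 2 was the lowest for 5 with a mean of 8.69, above those of replicates 3 and 4. Treated mouse replicate 1 was the highest for 7 members and had the highest mean of its group, 9.56. Treated spiny mouse replicate 1 was the highest for 5 and also had its group's highest mean, 9.05. Untreated spiny mouse replicate 3 was the highest for 4 members with a mean of 8.65, below the 8.83 of replicate 1. Sebocyte markers had 7.44 ± 0.40 and 7.53 ± 0.20 log2 CPM in untreated and treated mouse skin and 9.13 ± 0.36 and 8.59 ± 0.14 in spiny mouse skin, and endothelial markers 4.55 ± 0.061 and 4.12 ± 0.15 and 4.99 ± 0.11 and 4.75 ± 0.072.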
